A study of Homo sapiens with 16 samples.

Results

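Maps of JARID2 on DNA, made by chromatin immunoprecipitation and sequencing (ChIP-seq), were compared between 2 human liver cell lines. The comparison took 4 of the 16 samples of the series: JARID2 in HepG2, a liver carcinoma line (replicates 1 and 2), and JARID2 in THLE-2, a line of normal liver epithelial cells (replicates 1 and 2). Both lines were untreated per the labels, and each immunoprecipitated library had its own input library of sonicated chromatin. The series calls the replicates biological, and the authors called peaks in each library against its input with MACS. On chromosomes 1 to 22 and X the 4 lists held 15687 and 4075 peaks in HepG2 replicates 1 and 2, and 5351 and 5526 peaks in THLE-2 replicates 1 and 2, of 172991 peaks in the 8 lists of the whole series. A peak was shared by a pair of libraries where it overlapped a peak of the other by at least 1 bp, and a gene had a peak where one lay within 2 kb of either end of its RefSeq annotation on GRCh38. The replicates were kept apart throughout. THLE-2 is known as a line immortalised with a viral antigen, so it stands for non-tumour liver only within that limit. Peak lists hold no expression values, so the cell type labels were not checked against marker genes.

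JARID2 is an accessory subunit of Polycomb repressive complex 2 (PRC2). The complex carries the enzyme EZH2 (or its relative EZH1) with EED and SUZ12, and places the repressive mark H3K27me3 on histone H3. JARID2 lacks the demethylase activity of its family, binds DNA and nucleosomes, and is known for helping PRC2 settle at CpG-rich promoters of developmental genes. EZH2 and H3K27me3 were mapped in THLE-2 alone, so each overlap with them below is with the THLE-2 map, also for HepG2 peaks.

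Of the promoters that carried the same JARID2 site in both lines, 7 are shown because the findings below turn on them. The windows are from RefSeq (GRCh38.p14) and run from 250 bases before to 50 bases after a transcription start. RNF130 and ARFGAP3 had a peak in all 4 libraries, SPOP, DHX40 and TASOR in 3, and RFC1 and EZH1 in 1 library of each line. Capitals mark the bases from the lowest to the highest peak summit (the position of highest tag pile-up) over the libraries with a peak. In RNF130 the summits lay upstream of the window, and the capitals mark the bases inside the peak of every library. The windows lie at chr5:180071710-180072009 (RNF130, minus strand), chr22:42857224-42857523 (ARFGAP3, minus), chr17:49678114-49678413 (SPOP, minus), chr17:59565360-59565659 (DHX40, plus), chr3:56683216-56683515 (TASOR, minus), chr4:39366313-39366612 (RFC1, minus) and chr17:42744991-42745290 (EZH1, minus).
RNF130 promoter: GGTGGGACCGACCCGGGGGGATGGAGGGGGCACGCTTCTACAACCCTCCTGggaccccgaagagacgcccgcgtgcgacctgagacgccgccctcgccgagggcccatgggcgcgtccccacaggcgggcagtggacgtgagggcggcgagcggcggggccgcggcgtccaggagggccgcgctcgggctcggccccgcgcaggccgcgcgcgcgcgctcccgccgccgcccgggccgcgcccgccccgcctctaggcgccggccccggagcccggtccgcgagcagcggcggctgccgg
ARFGAP3 promoter: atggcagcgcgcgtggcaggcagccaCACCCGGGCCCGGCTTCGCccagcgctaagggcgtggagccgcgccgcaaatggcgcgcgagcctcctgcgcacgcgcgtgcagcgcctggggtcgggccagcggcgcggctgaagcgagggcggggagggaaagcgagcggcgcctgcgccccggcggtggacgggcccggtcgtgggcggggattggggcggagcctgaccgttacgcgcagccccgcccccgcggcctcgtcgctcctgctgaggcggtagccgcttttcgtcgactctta
SPOP promoter: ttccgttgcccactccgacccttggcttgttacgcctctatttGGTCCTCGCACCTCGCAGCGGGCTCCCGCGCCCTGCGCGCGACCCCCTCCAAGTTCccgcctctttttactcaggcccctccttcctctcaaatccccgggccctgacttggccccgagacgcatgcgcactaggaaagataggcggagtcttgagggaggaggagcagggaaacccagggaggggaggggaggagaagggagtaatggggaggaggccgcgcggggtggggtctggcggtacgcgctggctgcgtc
DHX40 promoter: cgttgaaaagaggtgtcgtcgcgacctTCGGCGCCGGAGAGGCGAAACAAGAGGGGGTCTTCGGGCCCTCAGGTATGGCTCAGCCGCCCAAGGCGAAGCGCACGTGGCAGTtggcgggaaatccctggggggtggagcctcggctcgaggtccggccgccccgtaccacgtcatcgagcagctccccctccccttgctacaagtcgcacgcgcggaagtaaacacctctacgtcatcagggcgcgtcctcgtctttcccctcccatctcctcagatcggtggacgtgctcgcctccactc
TASOR promoter: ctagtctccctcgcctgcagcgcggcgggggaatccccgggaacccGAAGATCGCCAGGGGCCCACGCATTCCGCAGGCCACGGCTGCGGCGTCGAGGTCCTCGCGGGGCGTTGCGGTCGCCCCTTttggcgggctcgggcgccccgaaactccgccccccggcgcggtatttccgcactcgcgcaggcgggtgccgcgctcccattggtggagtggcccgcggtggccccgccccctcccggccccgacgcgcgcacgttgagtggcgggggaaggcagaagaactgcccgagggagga
RFC1 promoter: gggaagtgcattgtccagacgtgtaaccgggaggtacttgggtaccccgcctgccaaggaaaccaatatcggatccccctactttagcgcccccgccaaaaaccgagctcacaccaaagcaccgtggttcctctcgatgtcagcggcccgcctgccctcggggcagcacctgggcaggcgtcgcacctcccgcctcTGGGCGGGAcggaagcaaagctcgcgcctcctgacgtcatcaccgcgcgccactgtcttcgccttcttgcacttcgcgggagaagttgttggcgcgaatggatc
EZH1 promoter: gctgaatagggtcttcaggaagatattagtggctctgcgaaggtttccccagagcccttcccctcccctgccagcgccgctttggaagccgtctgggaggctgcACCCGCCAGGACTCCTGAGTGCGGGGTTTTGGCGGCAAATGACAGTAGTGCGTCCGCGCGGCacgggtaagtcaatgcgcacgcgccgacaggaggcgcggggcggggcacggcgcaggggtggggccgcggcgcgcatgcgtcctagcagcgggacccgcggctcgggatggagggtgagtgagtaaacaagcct
GC content was 82.33% in the RNF130 window, 76.33% in ARFGAP3, 75.0% in TASOR, 67.0% in EZH1, 66.0% in SPOP, 65.33% in DHX40 and 63.33% in RFC1, against a median of 62.7% over the 15812 protein-coding genes with a window. The CpG count was 52 in RNF130, 48 in ARFGAP3, 43 in TASOR, 32 in DHX40, 30 in EZH1, 28 in RFC1 and 24 in SPOP, against a median of 22.

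The HepG2 replicates differed from each other in depth and in number of peaks. HepG2 replicate 1 had the fewest filtered tags (7945155) and the most peaks. HepG2 replicate 2 had 14627883 tags, and THLE-2 replicates 1 and 2 had 11703738 and 12988783. The authors' false discovery rate (FDR) was at most 5% for all 15687 peaks of HepG2 replicate 1 and for 0 peaks of HepG2 replicate 2, and for 4 and 11 peaks of THLE-2 replicates 1 and 2. The median FDR of a list was 1.29% and 100% in HepG2 replicates 1 and 2, and 15.81% and 44.23% in THLE-2 replicates 1 and 2. Peaks held 3.52% and 0.503% of the filtered tags of the HepG2 libraries, against 0.675% and 0.658% of those of THLE-2. The MACS headers give a redundant tag rate of 0.18 and 0.08 in the HepG2 libraries and 0.18 and 0.17 in the THLE-2 libraries. An antibody to JARID2 is named in the protocol of HepG2 replicate 1 alone, and the other 3 samples carry a general sentence with another catalogue item. Whether the antibody differed is not settled by the labels, and its part in any result was not tested.

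Peaks of HepG2 replicate 1 met peaks of THLE-2 more often than replicates of either line met each other. The overlap was 234 of 5351 THLE-2 replicate 1 peaks with HepG2 replicate 1 (4.37%, 95% Wilson interval 3.86 to 4.95), and 277 of 5526 THLE-2 replicate 2 peaks (5.01%, 4.47 to 5.62). HepG2 replicate 2 met 8 peaks of THLE-2 replicate 1 (0.196% of the 4075 HepG2 peaks, 0.0995 to 0.387) and 18 of THLE-2 replicate 2 (0.442%, 0.280 to 0.697). These intervals cover counting error only.

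Within lines, 45 of the 4075 peaks of HepG2 replicate 2 overlapped replicate 1 (1.10%, 0.826 to 1.47), and 55 of the 5351 peaks of THLE-2 replicate 1 overlapped replicate 2 (1.03%, 0.791 to 1.34). Measured over the shorter list, the 4 between-line pairs averaged 2.51% ± 2.54 and the 2 within-line pairs 1.07% ± 0.0541 (SD). The within-minus-between difference was -1.44 percentage points, and an exact one-sided permutation test for greater overlap within lines gave p = 1.0, where the smallest p that 3 splits of 4 libraries allow is 0.3333. Without HepG2 replicate 1 the difference turned to 0.709 percentage points, so the sign rests on that library. Over lists of equal length the pairs of HepG2 replicate 1 across lines again stood highest and those of HepG2 replicate 2 lowest. With the 2000 peaks of best score from each list, HepG2 replicate 1 met 53 and 89 peaks of THLE-2 replicates 1 and 2, HepG2 replicate 2 met 3 and 8, and the replicates met each other at 16 peaks in HepG2 and 19 in THLE-2.

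**Figure D1:**
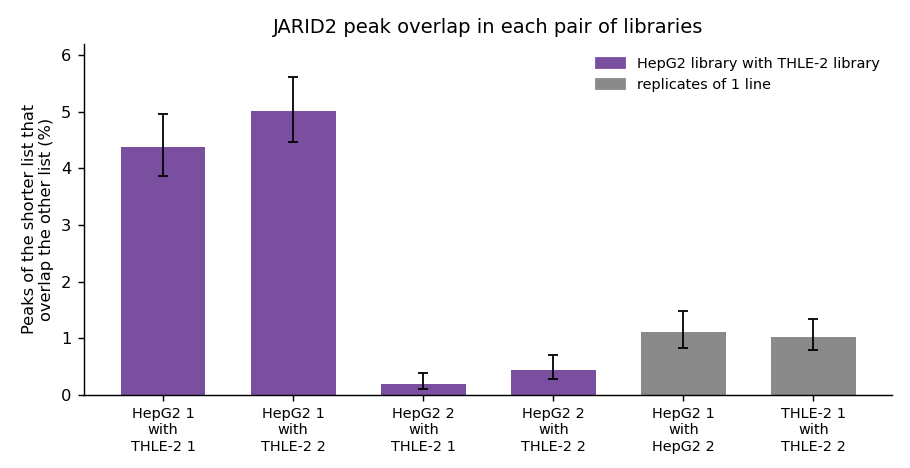
Percent of the shorter JARID2 peak list that overlaps the other list by at least 1 bp, for each pair of libraries; whiskers are 95% Wilson intervals for counting error. Both pairs with HepG2 replicate 1 across lines (4.37% and 5.01%) stand above the replicate pairs (1.10% and 1.03%), and both pairs with HepG2 replicate 2 across lines (0.196% and 0.442%) stand below them.

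THLE-2 peaks of the highest scores had a HepG2 replicate 1 peak more often than the whole lists did, but peaks of the highest fold did not do so in both libraries. The score of a peak is -10 times the log10 of its MACS p-value, for which the authors' cutoff was 1e-05. With both lists restricted to a p of 1e-10 or less, HepG2 replicate 1 met 7 of 69 peaks of THLE-2 replicate 1 (10.1%) and 19 of 86 of THLE-2 replicate 2 (22.1%). HepG2 replicate 2, with 56 peaks at that threshold, met 0 of them. At a score of 80 or more, a step chosen after the values were seen, the shares with HepG2 replicate 1 were 6.27% and 18.2%, and with HepG2 replicate 2 they were 0.660% and 0.940%. At 60 or more, also chosen after the values were seen, the shares with HepG2 replicate 1 were 4.03% and 7.48%. By fold, the top 10% of THLE-2 peaks met either HepG2 library at 2.24% and 5.43% in THLE-2 replicates 1 and 2, and the lowest 10% at 14.6% and 14.3%.

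Of the 11 THLE-2 replicate 2 peaks with an FDR of at most 5%, 8 had a HepG2 replicate 1 peak, and of the 4 such peaks of THLE-2 replicate 1, 1 did. The 8 lay at RNF130, DHX40, MEPCE with ZCWPW1, HGH1, ARHGDIA and CDT1 and at 2 places with no coding gene end. MEPCE caps the small nuclear RNA 7SK. At the start shared by MEPCE and ZCWPW1 the peak held 41 tags at a fold of 8.23 in HepG2 replicate 1 and 45 tags at 16.97 in THLE-2 replicate 2, with summits 40 bp apart. The fold is the authors' enrichment over local input and is used only to rank peaks within a list. THLE-2 peaks of that FDR without one in HepG2 included TEAD3, a DNA partner of YAP, and COASY, an enzyme of coenzyme A synthesis, both in THLE-2 replicate 1.

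Merging all overlapping peaks gave 30029 sites. A single library accounted for 29467 of them (98.1%), 562 sites had peaks in at least 2 libraries, 497 had peaks in both lines, and 33 had peaks in 3 or 4 libraries. HepG2 alone held 15165 sites of replicate 1, 4013 of replicate 2 and 36 of both replicates. THLE-2 alone held 5082 sites of replicate 1, 5207 of replicate 2 and 29 of both replicates.

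Both lines met at 205 sites of HepG2 replicate 1 with THLE-2 replicate 1 and 242 of HepG2 replicate 1 with THLE-2 replicate 2. HepG2 replicate 2 met THLE-2 replicate 1 alone at 5 sites and THLE-2 replicate 2 alone at 12. Of the 43 sites found in both HepG2 replicates, 7 were also in THLE-2 (16.3%), and of the 57 found in both THLE-2 replicates, 28 were also in HepG2 (49.1%). HepG2 replicate 1 had a peak at all 28, and HepG2 replicate 2 at 2.

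**Figure D2:**
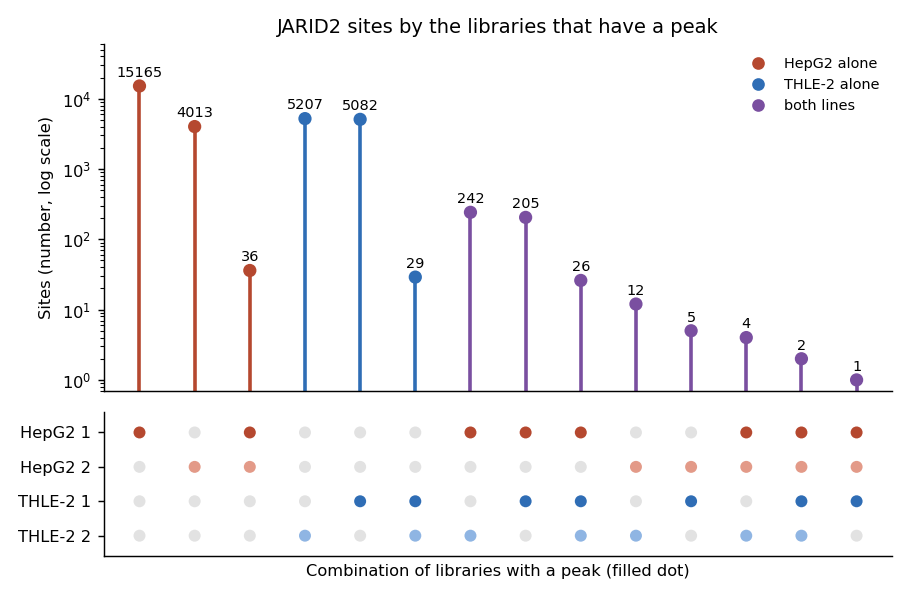
Number of merged JARID2 sites (log scale) for each combination of libraries with a peak, shown by the filled dots below; HepG2 alone is red, THLE-2 alone blue and both lines purple. Sites of 1 library run from 4013 to 15165, while 36 sites were in both HepG2 replicates alone, 29 in both THLE-2 replicates alone and 2 in all 4 libraries.

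The 2 sites of all 4 libraries were the starts of RNF130 and ARFGAP3. RNF130 encodes a RING-type ubiquitin ligase and lies at chr5:179911651-180071759. Its peaks held 147 and 63 tags in HepG2 replicates 1 and 2, and 37 and 44 tags in THLE-2 replicates 1 and 2. The FDR of these peaks was 100% in HepG2 replicate 2 and 0.0% in the other libraries. Their folds were 62.87 and 9.35 in HepG2, against 17.72 and 23.97 in THLE-2. It was the peak of highest fold in both THLE-2 lists (no stronger peak, 0.0% of the list) and within the top 0.01% of HepG2 replicate 1, but near the middle of HepG2 replicate 2, with 51.4% of peaks ranked higher. The 4 summits lay within 101 bp, from 180072244 to 180072345.

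ARFGAP3 encodes a Golgi protein that switches off the GTPase ARF1 and lies at chr22:42796502-42857273. Its peaks held 64 and 36 tags in HepG2, against 50 and 39 tags in THLE-2. The folds were 24.6 and 7.62 in HepG2, against 9.85 and 14.37 in THLE-2. The 4 summits fell within 18 bp of each other, all inside the promoter window printed above. The tag numbers of the lines overlapped at ARFGAP3, while at RNF130 both HepG2 libraries held more tags than either THLE-2 library; tags were not scaled to depth.

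A further 5 sites had a peak in both HepG2 libraries and 1 THLE-2 library, and all 5 lay at a gene start. SPOP, the substrate adaptor of a cullin-3 ubiquitin ligase, had 36 and 20 tags in HepG2 replicates 1 and 2 and 21 tags in THLE-2 replicate 1, with summits within 55 bp. HDAC2, a class I histone deacetylase, had 33 and 29 tags in HepG2 and 20 tags in THLE-2 replicate 2, with summits within 14 bp. DHX40, a DEAH-box helicase gene, had 52 and 50 tags in HepG2 and 29 in THLE-2 replicate 2. Its fold of 18.82 put it within the top 0.02% of that THLE-2 list. TRIM44, a TRIM-family gene, had 41 and 42 tags in HepG2 and 31 in THLE-2 replicate 2. SYCE2, a part of the meiotic synaptonemal complex, had 39 and 45 tags in HepG2 and 20 in THLE-2 replicate 2. HepG2 held more tags than THLE-2 at 4 of these 5 sites in both replicates, and at SPOP the lines overlapped.

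The other 26 sites had peaks in HepG2 replicate 1 and both THLE-2 libraries, 20 of them at coding gene ends. The polyadenylation factor gene WDR33 shared its site with SFT2D3 and had 50 tags in HepG2 replicate 1 against 38 and 40 in THLE-2. The cleavage factor CPSF1 had 86 tags in HepG2 against 36 and 24 in THLE-2. The splicing regulator PTBP1 had 37 in HepG2 against 25 and 26 in THLE-2, and the splicing factor SRSF1 had 34 in 2 HepG2 peaks against 35 and 15 in THLE-2.

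TASOR, a core of the silencing complex HUSH, had 90 tags in HepG2 replicate 1 against 29 and 35 in THLE-2, at a fold of 26.08 in HepG2. OTULIN, which removes linear ubiquitin chains, had 88 in HepG2 against 25 and 43 in THLE-2. FGF2, a fibroblast growth factor, had 12 in HepG2 against 19 and 14 in THLE-2, with summits within 40 bp. LACTB2 and XKR9 shared a start with 42 tags in HepG2 against 19 and 31 in THLE-2, and with summits within 8 bp. The remaining genes were TRIM59, NAAA, ECPAS, BMAL2, CCDC85C, HHIPL1, BEGAIN, TCF12, BCAR1, PIEZO1, CNTD1, COA3, WNK4, CCDC40, TBC1D16 and SLC35E4.

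None of the 33 sites in 3 or 4 libraries overlapped a THLE-2 EZH2 peak, and 1, at BEGAIN, overlapped H3K27me3. For the 28 of them in both THLE-2 libraries, a count of 0 allows a share of up to 10.7% (3 sites). Every whole list overlapped EZH2 at a share below that limit, from 0.368% (HepG2 replicate 2) to 5.49% (HepG2 replicate 1). The count of 0 over these 28 sites therefore cannot show that they met EZH2 less often than the whole lists did. Over the 33 sites the summits of 9 lay within 100 bp of each other. HepG2 replicate 2, which held 7 of the 33, had a fold under that of the median peak of its own list at 5 of them and ranked SPOP and HDAC2 in the top 0.12% and 8.81%. Its FDR was 100% at each of the 7.

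**Figure D3:**
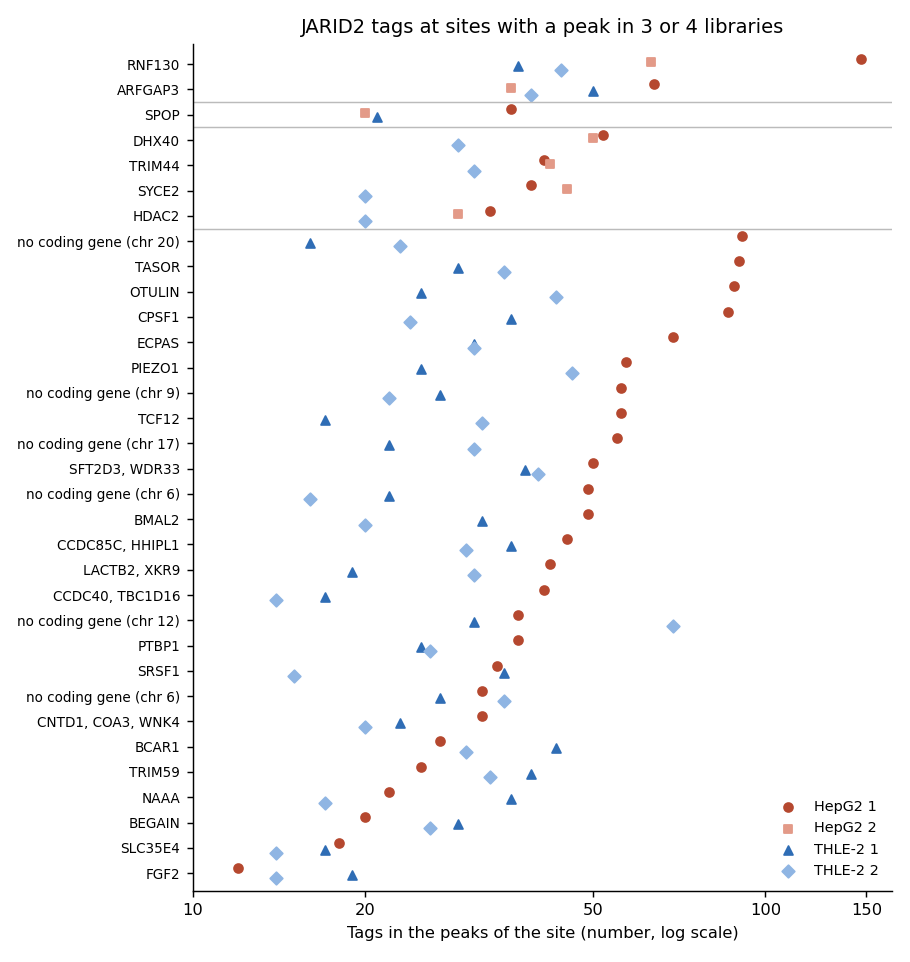
Tags in the JARID2 peaks of a library (number, summed where a site holds more than 1 peak, log scale, not scaled to library depth) at each of the 33 sites with a peak in 3 or 4 libraries; grey lines part the sites in all 4 libraries, in both HepG2 and THLE-2 replicate 1, in both HepG2 and THLE-2 replicate 2, and in HepG2 replicate 1 and both THLE-2 libraries. RNF130 has the most tags (147, HepG2 replicate 1), and at FGF2, TRIM59, BEGAIN and BCAR1 HepG2 replicate 1 has fewer tags than either THLE-2 library.

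Peaks that met the other line lay at gene ends more often than those that did not, in all 4 libraries. The share within 2 kb of a coding gene end was 67.4% against 25.8% in HepG2 replicate 1 and 33.3% (8 of 24 peaks) against 3.23% in HepG2 replicate 2. In THLE-2 it was 60.7% against 11.2% in replicate 1 and 69.6% against 10.5% in replicate 2. The mean difference was 45.0 percentage points ± 12.2 (SD, 4 libraries, higher in 4 of 4), with an exact two-sided sign-flip p = 0.125, the smallest that 4 libraries allow. The BH-adjusted p over the 8 measures compared in this way was 0.125 for each. The libraries are not independent here, since a shared peak is counted in both lists.

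These peaks were also wider and held more tags, and their part in the overlap was not tested. The median width was 999 against 600 bp in HepG2 replicate 1 and 722 against 540 bp in HepG2 replicate 2, and 754 against 595 bp and 841 against 600 bp in THLE-2 replicates 1 and 2. The median tag number was 28 against 12 and 21 against 14 in HepG2, and 20 against 13 and 23 against 14 in THLE-2. Their fold nevertheless ranked lower: 67.3% of the list stood above the median shared peak in HepG2 replicate 1, 79.2% in HepG2 replicate 2, 80.2% in THLE-2 replicate 1 and 69.6% in THLE-2 replicate 2.

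Among peaks at gene ends the summits of shared peaks fell close to the start. Of the HepG2 replicate 1 peaks that met THLE-2, 276 had a summit within 2 kb of a RefSeq start with a known strand, and 220 of these (79.7%) within 500 bp, against 69.9% for peaks that did not meet THLE-2. The same shares were 66.9% against 46.9% in THLE-2 replicate 1 and 73.1% against 60.7% in THLE-2 replicate 2. In HepG2 replicate 2 all 7 such summits fell within 500 bp, against 9 of 46. The median shared summit lay 137 bp downstream of the start in HepG2 replicate 1 and 171 and 155 bp downstream in THLE-2, and 211 bp upstream in HepG2 replicate 2.

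Over all peaks, overlap with THLE-2 EZH2 was higher at shared peaks as well. Among peaks at gene ends it was not higher in either HepG2 library. Over all peaks it was 9.69% against 5.35% in HepG2 replicate 1 and 4.17% (1 of 24 peaks) against 0.346% in HepG2 replicate 2. In THLE-2 it was 8.79% against 1.55% and 9.34% against 1.53% in replicates 1 and 2. The mean difference was 5.80 percentage points ± 2.02 (SD, higher in 4 of 4 libraries, exact sign-flip p = 0.125). Over all peaks H3K27me3 went the other way, with 11.5% against 12.9% and 0.0% against 5.36% in HepG2. In THLE-2 it was 10.9% against 13.4% and 10.0% against 10.4%. That mean difference was -2.38 percentage points ± 2.17 (lower in 4 of 4, exact p = 0.125), and 3 of the 4 differences were under 3 points.

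**Figure D4:**
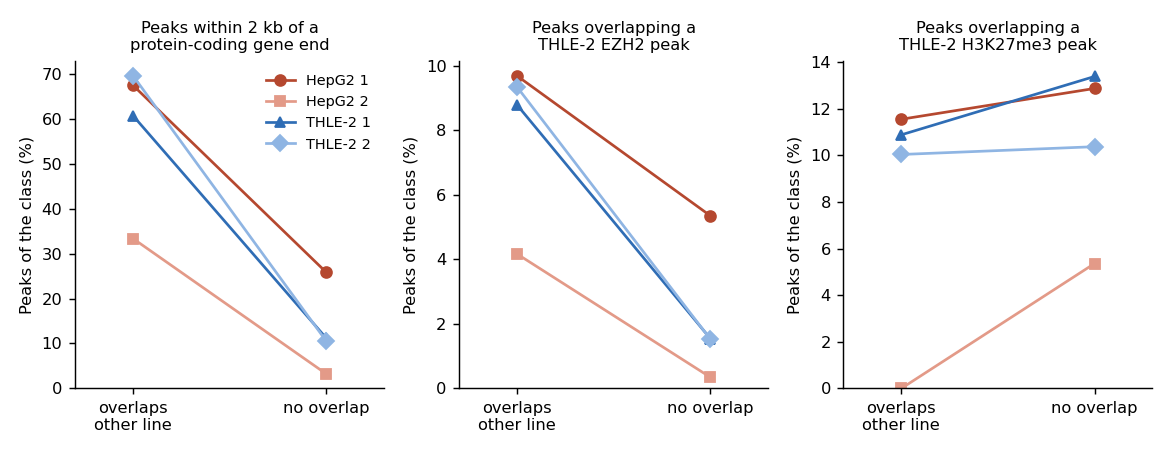
Percent of JARID2 peaks at a coding gene end, over a THLE-2 EZH2 peak and over a THLE-2 H3K27me3 peak, for peaks that overlap the other line (left) and peaks that do not (right), 1 line per library. Every library falls from left to right in the first and second panels, for example 67.4% against 25.8% at gene ends in HepG2 replicate 1, and no library does in the third.

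The 447 sites of HepG2 replicate 1 with 1 THLE-2 library fell into those with and those without THLE-2 EZH2. EZH2 overlapped 47 (10.5%), of which 37 were at a coding gene end and 37 carried H3K27me3 in THLE-2. The other 400 had H3K27me3 at 18 (4.50%). Summits of HepG2 and THLE-2 were a median of 299 bp apart at the EZH2 sites and 228.5 bp at the rest, and within 100 bp at 14.9% and 29.5% of them. The median peak at EZH2 sites held 23 tags in HepG2 and 18 in THLE-2, and at the rest 28 tags in HepG2 and 22 in THLE-2.

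The listed developmental transcription factors and HOX genes lay at the EZH2 sites. All 6 developmental transcription factors and both HOX genes found among the 447 sites were at EZH2 sites, among them FOXE1, FOXF2, LHX2, MNX1, NKX2-5, HOXA13 and HOXD1. The EZH2 sites hold 43 of the 368 coding genes there. HOXD1, a gene of body-axis patterning, had 18 tags in HepG2 replicate 1 and 12 in THLE-2 replicate 2, with folds of 14.94 in HepG2 and 9.35 in THLE-2. Its summits lay 138 bp apart. FOXF2, a forkhead factor of mesenchyme, had 57 tags in HepG2 replicate 1 and 28 in THLE-2 replicate 1, with summits 1891 bp apart. NKX2-5, a heart factor, had 17 tags in HepG2 replicate 1 and 20 in THLE-2 replicate 1, with summits 522 bp apart. LHX2, a LIM-homeobox factor of forebrain and limb, had 69 tags in HepG2 replicate 1 and 37 in THLE-2 replicate 2, with summits 274 bp apart. MNX1, a motor neuron and pancreas factor, had 64 tags in HepG2 replicate 1 and 16 in THLE-2 replicate 2, with summits 529 bp apart.

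Others at EZH2 sites, named after their values were seen, were TBR1, FEV, FOXQ1, HES2 and GSC2, all transcription factor genes, and the laminin gene LAMA1. LAMA1 had 47 tags at a fold of 15.37 in HepG2 replicate 1 and 14 tags at 12.47 in THLE-2 replicate 2. It and ATP6V1C2 (25 tags in HepG2 and 28 in THLE-2 replicate 2) were the EZH2 sites ranked best in both lists. By their choice, each of the 447 sites was found in 1 THLE-2 library only.

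The sites without EZH2 held 325 of the 368 coding genes, among them BMP2, ZEB1 and GRHL1. All 5 cell cycle and replication genes (CDT1, RFC1, E2F6, POLE and CCNE2) and all 4 ribosomal protein genes (RPS19, RPS13, RPS7 and RPL12) at the 447 sites were there, a share near that of all genes. CDT1, which licenses replication origins, had 49 tags in HepG2 replicate 1 and 60 in THLE-2 replicate 2 with summits 18 bp apart. RFC1, the large subunit of the clamp loader, had 36 in HepG2 and 25 in THLE-2 replicate 2 with summits 8 bp apart, and folds of 21.34 in HepG2 and 13.71 in THLE-2. E2F6, a repressor of the E2F family found in a variant PRC1 complex, had 29 in HepG2 and 37 in THLE-2 replicate 1, with summits 570 bp apart. RPS19, a protein of the small ribosomal subunit, had 29 in HepG2 and 38 in THLE-2 replicate 2 with summits 14 bp apart.

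The best-ranked pairs across lines were led by RNF130 in 3 of the 4 library pairs. For HepG2 replicate 1 with THLE-2 replicate 1, TLCD3B followed (18 tags in HepG2 and 26 in THLE-2), then LACTB2 with XKR9, E2F6 and a place with no gene. For HepG2 replicate 1 with THLE-2 replicate 2, a place with no gene on chromosome 1 (25 tags in HepG2 and 17 in THLE-2, summits 4 bp apart), ARFGAP3, RFC1 and LAMA1 followed. For HepG2 replicate 2, SPOP, ARFGAP3 and HDAC2 were the other genes among the 5 best pairs with either THLE-2 library, and the remaining 6 pairs had no coding gene end.

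Of the Polycomb genes, JARID2 itself and EZH1 had a site in both lines, and neither overlapped EZH2. The peak at JARID2 (chromosome 6) held 37 tags at a fold of 8.53 in HepG2 replicate 1 and 27 tags at 6.88 in THLE-2 replicate 1, with summits 161 bp apart. The peak at EZH1 held 30 tags at 11.95 in HepG2 replicate 1 and 45 tags at 10.27 in THLE-2 replicate 1, with summits 61 bp apart. EZH2 had a peak in HepG2 replicate 1 alone, with 48 tags at a fold of 6.98. EED and SUZ12 had no peak in any of the 4 lists, which means that MACS called none there and not that JARID2 was absent.

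Gene by gene, 4503 of 19974 coding genes had a peak at an end in HepG2 replicate 1 (22.5%) and 143 in HepG2 replicate 2 (0.716%), against 840 in THLE-2 replicate 1 (4.21%) and 875 in THLE-2 replicate 2 (4.38%). HepG2 replicate 1 shared 313 genes with THLE-2 replicate 1 and 365 with THLE-2 replicate 2, that is 6.95% and 8.11% of its own genes and 37.3% and 41.7% of the THLE-2 genes. HepG2 replicate 2 shared 9 genes with THLE-2 replicate 1 (6.29% of its own, 1.07% of THLE-2) and 12 with THLE-2 replicate 2 (8.39% and 1.37%). Within lines, the HepG2 replicates shared 33 genes (0.733% of replicate 1, 23.1% of replicate 2) and the THLE-2 replicates 71 (8.45% of replicate 1, 8.11% of replicate 2), that is 0.165% and 0.355% of all coding genes.

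A common gene did not always mean a common site. The peaks overlapped at 174 of the 313 genes (55.6%) and at 244 of the 365 (66.8%), at 11 of the 33 within HepG2 (33.3%) and at 36 of the 71 within THLE-2 (50.7%). Over all libraries, 638 genes had a peak in at least 1 library of each line (3.19%), 57 in 3 or 4 libraries (0.285%) and 2 in all 4 (0.01%). Of the 57, 32 had overlapping peaks in the libraries concerned.

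Genes found in both replicates of 1 line and neither of the other were few. HepG2 had 24 (0.12% of all coding genes) and THLE-2 had 21 (0.105%). In HepG2, 4 of the 24 had the same site in both replicates, BCL7C, CTF1, VRK3 and ZNF473, from 2 sites at shared starts. The site between VRK3 and ZNF473 had 26 and 42 tags in HepG2 replicates 1 and 2, with folds of 14.0 and 6.0.

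The 10 HepG2 genes ranked best in both replicates all had their peaks apart. They were RBM44, XPO1, REEP3, VDAC1, PEG3, ZIM2, THNSL1, PKP2, POU3F3 and GRIN2B. The peaks lay at opposite ends of the gene in RBM44, XPO1, REEP3, VDAC1, THNSL1, POU3F3 and GRIN2B. XPO1, the main nuclear export receptor, had 23 tags at its start side (summit 61537155) in replicate 1 and 11 tags at its other end (61478321) in replicate 2. PEG3 and ZIM2, imprinted genes that share a start, had 9 and 12 tags. POU3F3, a neural POU factor, had 15 and 14 tags, and GRIN2B, a subunit of the NMDA receptor, had 13 and 14.

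In THLE-2, 8 of the 21 genes had the same site in both replicates. ZNF598, a ubiquitin ligase that senses collided ribosomes, had 32 and 20 tags with folds of 9.24 and 9.06. LCMT2, a tRNA-modifying enzyme gene, had 15 and 19 tags with folds of 9.63 and 8.68. SMAD2, a signal carrier of TGF-beta receptors, had 25 and 30 tags with folds of 7.8 and 6.21. SOHLH1, a germ cell factor, had 14 and 16 tags. AP4M1 and MCM7, a subunit of the replicative helicase, shared a site with 26 and 30 tags.

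FOXA2, a pioneer factor of liver, had 20 tags in each THLE-2 library, at summits 22587035 and 22585208 with folds of 13.84 and 7.36, and no peak in HepG2. BACE2, SLC9A2, SLC25A20 and ZNF490 also had their 2 THLE-2 peaks apart. The carnitine carrier gene SLC25A20 had 14 tags at one end and 12 at the other. No HepG2 or THLE-2 gene of these lists was tested for a difference in signal, since reads were not used here.

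The 36 sites found in both HepG2 replicates and not in THLE-2 lay about as far from genes as the whole list of HepG2 replicate 2. At a coding gene end were 2 of them (5.56%), against 3.41% of that list, and 17 lay more than 100 kb from any (47.2%), against 42.9%. In the list of HepG2 replicate 1 the shares were 27.1% and 14.7%. Of the 36 sites, 4 overlapped THLE-2 EZH2 (11.1%), against 5.49% and 0.368% of the lists of HepG2 replicates 1 and 2. Of the 29 sites of both THLE-2 replicates alone, 8 were at a gene end (27.6%) and 5 lay more than 100 kb away (17.2%). EZH2 overlapped 2 of them (6.90%). In the lists of THLE-2 replicates 1 and 2 the gene-end shares were 13.4% and 13.6%. The shares beyond 100 kb were 23.8% and 29.1%, and those over EZH2 1.87% and 1.94%. Several HepG2 sites came in runs: 4 between 34572495 and 34596525 and 2 between 46388442 and 46395384 on chromosome 16. The largest of these held 499 and 250 tags in HepG2 replicates 1 and 2.

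On chromosome 11, 3 sites of 6926, 9402 and 10147 bp between 100924069 and 102221770 held 65, 73 and 115 tags in HepG2 replicate 1 and 219, 471 and 514 in replicate 2. THLE-2 had no peak at any of these chromosome 11 and 16 sites. THLE-2 replicate 2 had 2 narrow peaks of 12 tags each nearby on chromosome 11, inside HepG2 replicate 2 peaks of 210 and 212 tags.

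Lists of related genes were covered most by HepG2 replicate 1. HepG2 replicate 1 had peaks at 75 of 164 developmental transcription factors (45.7%), 13 of 39 HOX genes (33.3%), 19 of 41 WNT ligands and receptors (46.3%), 13 of 24 PRC1 subunits (54.2%), 5 of 14 PRC2 subunits (35.7%) and 9 of 11 histone deacetylases (81.8%), against 22.5% of all coding genes. HepG2 replicate 2 had 1, 0, 0, 0, 0 and 2 of the same lists. THLE-2 replicate 1 had 7, 3, 5, 2, 2 and 1, and THLE-2 replicate 2 had 13, 4, 0, 0, 0 and 1. THLE-2 libraries had peaks at 4.21% and 4.38% of all coding genes and HepG2 replicate 2 at 0.716%. The lists were not tested. Of the developmental factors, 10 had a peak in both lines (6.10%, against 3.19% of all coding genes). The 6 above had them at overlapping positions, and 4, among them IRX6, LBX1 and PHOX2A, at positions apart. PCGF3 was the 1 PRC1 gene in both lines, with 12 tags in HepG2 replicate 1 and 12 in THLE-2 replicate 1 at separate positions.

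Hepatocyte function genes and liver transcription factors stood on either side of the share of all coding genes, except that neither list had a peak in HepG2 replicate 2. Of 109 hepatocyte function genes, 10 had a peak in HepG2 replicate 1 (9.17%) and 0 in HepG2 replicate 2, against 3 (2.75%) and 2 (1.83%) in THLE-2, below the share of all coding genes in each library. APOC2, an apolipoprotein gene, was the 1 with a peak in both lines, at positions apart (12 tags in HepG2 replicate 1 and 12 in THLE-2 replicate 2). Of 31 liver transcription factors, 11 had a peak in HepG2 replicate 1 (35.5%) and 0 in replicate 2, against 2 and 2 in THLE-2 (6.45% each). ONECUT1 was the 1 in both lines, with 12 tags in HepG2 replicate 1 and 16 in THLE-2 replicate 1 at positions apart.

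Of the Trithorax list, DPY30, NCOA6 and PAXIP1 had a site in both lines (3 of 19, 15.8%). Of all coding genes 3.19% had a peak in both lines. PAXIP1, a partner of H3K4 methyltransferases, had 88 tags in HepG2 replicate 1 and 45 in THLE-2 replicate 2. HDAC1 had 26 tags in HepG2 replicate 1 and 16 in THLE-2 replicate 1, at separate positions, beside HDAC2 above. Of WNT genes, LRP5, a co-receptor, had peaks in both lines at positions apart (16 tags in HepG2 replicate 1 and 14 in THLE-2 replicate 1). Of 58 ligand genes of the BMP, TGF-beta, FGF and hedgehog families, 4 had peaks in both lines (6.90%, against 3.19% of all coding genes). They were FGF2, FGF19, BMP2 and GDF6. FGF19, a hormone that restrains bile acid synthesis, had 19 tags in HepG2 replicate 1 and 13 in THLE-2 replicate 1.

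Among 52 epithelial-mesenchymal genes, OVOL1, ZEB1, ESRP2 and GRHL1 were in both lines (7.69%, against 3.19% of all coding genes), and the share in HepG2 replicate 1 was 23.1%, near its 22.5% of all. ZEB1, a repressor of epithelial genes, had 28 tags at a fold of 5.69 in HepG2 replicate 1 and 20 at 6.12 in THLE-2 replicate 1. OVOL1, an epithelial factor, had 44 tags in HepG2 replicate 1 and 14 in THLE-2 replicate 2. Of 69 tumour suppressor and liver cancer genes, FGF19, CDKN1B and KEAP1 were in both lines (4.35%, against 3.19% of all coding genes). CDKN1B, a cyclin-dependent kinase inhibitor, had 58 tags in HepG2 replicate 1 and 42 at a fold of 11.62 in THLE-2 replicate 2. KEAP1, the adaptor that degrades NRF2, had 46 tags in HepG2 replicate 1 and 31 in THLE-2 replicate 1.

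Olfactory receptor, zinc finger, histone and neuronal genes differed in coverage. Of 392 olfactory receptors, 8 and 9 had a peak in HepG2 replicates 1 and 2 (2.04% and 2.30%), against 6 and 2 in THLE-2 (1.53% and 0.510%), and OR6N1 was the 1 in both lines. Olfactory receptors were the 1 list in which HepG2 replicate 2 had more genes than HepG2 replicate 1. Of 510 zinc finger genes, 92 and 8 had one in HepG2 (18.0% and 1.57%) against 20 and 23 in THLE-2 (3.92% and 4.51%), and 12 were in both lines (2.35%, against 3.19% of all coding genes). ZNF280D led these with 55 tags at a fold of 19.04 in HepG2 replicate 1 and 34 at 8.72 in THLE-2 replicate 2. Of 69 replication-dependent histone genes, 1 had a peak in HepG2 replicate 1 and 0 in the other 3 libraries. Of 100 neuronal channel and receptor genes, 30 and 1 had one in HepG2 against 4 and 2 in THLE-2, and SCN8A and GRIN1 were in both lines, at positions apart.

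**Figure D5:**
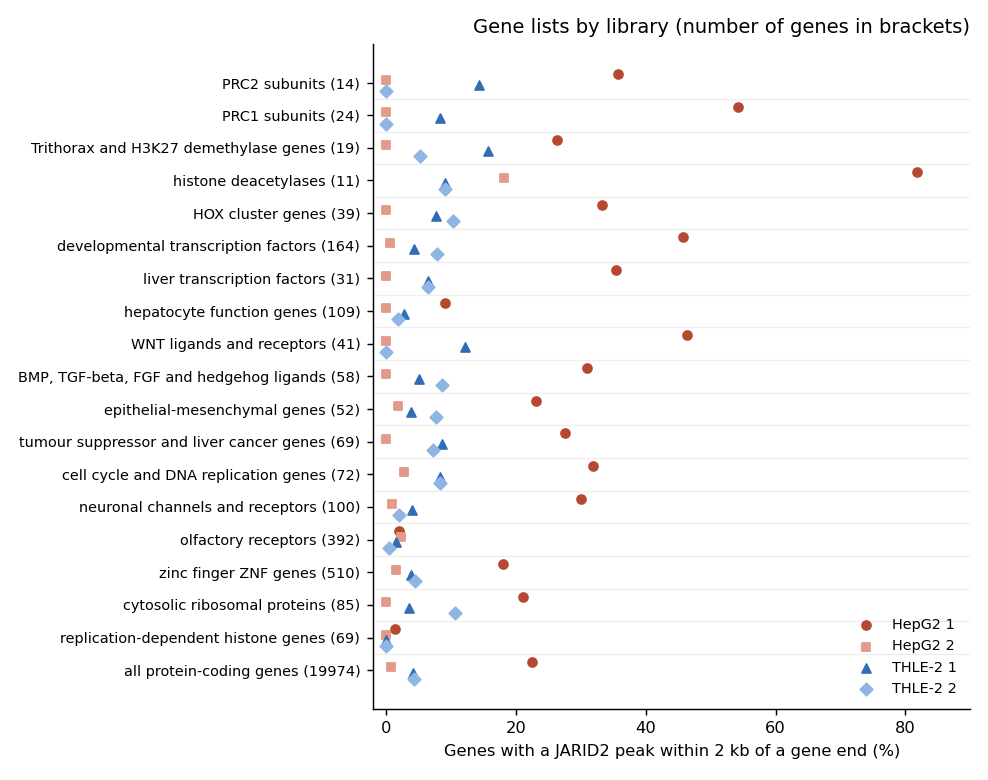
Percent of each gene list (number of genes in brackets) with a JARID2 peak within 2 kb of a gene end, by library, with all coding genes in the bottom row. HepG2 replicate 1 stands highest in every list but olfactory receptors, with 81.8% of histone deacetylases, while HepG2 replicate 2 stays at 0 in 11 of the 18 lists.

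Promoters under a peak were rich in GC in each library. The median GC content of the 300-base promoter windows under a peak was 70.7% (2502 windows) and 70.0% (17) in HepG2 replicates 1 and 2, and 65.2% (292) and 69.0% (387) in THLE-2, against 62.7% of all windows. HepG2 minus THLE-2 was 3.25 percentage points (70.3 ± 0.472 against 67.1 ± 2.71, SD, n = 2 each), with an exact two-sided permutation p = 0.3333, the smallest possible. The 231 genes with a peak over the promoter in both lines had a median of 71.0%, the 2278 in HepG2 alone 70.7% and the 426 in THLE-2 alone 65.0%.

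The letters CCGCCG (either strand) stood in 57.1% of the promoters of both lines, 62.6% of HepG2 alone and 49.1% of THLE-2 alone, against 38.7% of all windows. CGCG stood in 85.3%, 86.0% and 76.5%, against 63.7%. GGGCGG, the core of a GC box, stood in 74.9%, 77.2% and 64.6%, against 57.3%. GAGAGA stood in 14.7%, 17.2% and 18.3%, against 21.3%, and CACACA in 14.3%, 10.9% and 13.4%, against 14.6%. A match is a description of the letters and not a binding site, and CGCG can overlap the other GC-rich motifs.

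Of the measures compared over whole lists, 4 did not separate the lines, since a HepG2 library lay above or between the THLE-2 libraries and the other below them. The share of peaks at coding gene ends was 27.1% and 3.41% in HepG2 against 13.4% and 13.6% in THLE-2 (HepG2 minus THLE-2 1.75 percentage points, exact permutation p = 1.0). The share over THLE-2 EZH2 was 5.49% and 0.368% in HepG2 against 1.87% and 1.94% in THLE-2 (difference 1.03 points, exact p = 1.0). The share over THLE-2 H3K27me3 was 12.8% and 5.33% in HepG2 against 13.3% and 10.4% in THLE-2 (difference -2.73 points, exact p = 0.6667). The median width was 604 and 541 bp in HepG2 against 598 and 605 bp in THLE-2 (difference -29.0 bp, exact p = 0.6667). Each test was two-sided over 3 splits and could not go below 0.3333. The THLE-2 replicates lay closer together than the HepG2 replicates in each of these 4 measures. In 2 measures the lines did not overlap, promoter GC above and the share of the list that met the other line. That share was 3.09% and 0.589% in HepG2 against 4.47% and 5.23% in THLE-2 (difference -3.01 points, exact p = 0.3333), and it depends on the length of both lists.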

How the data were processed

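JARID2 ChIP-seq peak lists of HepG2 and THLE-2 (2 libraries each) were analysed. The authors trimmed reads with cutadapt, aligned them with Bowtie2 to GRCh38 and called peaks with MACS 1.4.2, per the submitters' processing notes; per the file headers each library was called against its own input at a p cutoff of 1e-05, keeping at most 1 tag per position. The deposited lists give, per peak, a tag count, a score of -10 times the log10 of p, a fold enrichment ratio and an FDR in percent. Other deposited columns, positions and lengths, were used as coordinates. Tag counts were not scaled to depth, which ran from 7945155 to 14627883 filtered tags per library, and the number and reach of called peaks moves with depth and input.

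Peaks on chromosomes 1 to 22 and X were kept. Overlap needed 1 bp, and a gene end was within 2 kb of either end of a RefSeq protein-coding gene (GRCh38.p14). Wilson intervals at 95% and limits from a count of 0 (3 counts) cover counting error only. Lines were compared by exact permutation over libraries, and no test was run over peaks. No genome was used, so base composition came from RefSeq promoter windows of 300 bases. Python 3.11.15, numpy 2.4.6, pandas 2.3.3, scipy 1.17.1 and matplotlib 3.10.9 were used, and overlap and counting steps were tested on simulated peaks. Alternatives were a p of 1e-10, the 2000 best peaks, merging within 10 kb, other overlap rules, gene windows of 1 and 5 kb, all RefSeq genes, start sites only, each replicate left out and a replicate block.

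Genes were named by rule: those at sites in 3 or 4 libraries, the 10 best-ranked genes of both replicates of 1 line alone, the genes at the 5 best-ranked overlapping pairs of each library pair, up to 4 members of each of 18 gene lists found in both lines, and JARID2, EZH2, EED and SUZ12. Others were named after their values were seen. The comparison, the genes and the lists were chosen with earlier results of these data known. Same-numbered libraries were not paired by the labels.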

Additional observations from a re-analysis of the deposited data

Results flagged for a closer look

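Peaks on contigs outside the assembled chromosomes were left out of every comparison above. HepG2 replicate 1 had 45 such JARID2 peaks and HepG2 replicate 2 had 15, against 5 in THLE-2 replicate 1 and 5 in THLE-2 replicate 2. The deposited lists held 15738 and 4090 peaks in HepG2 and 5356 and 5532 in THLE-2, so contig peaks were a small part of each. They are listed because they lie outside the main measurement and number more than 3, a cutoff for listing and not a test. Their source was not tested.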

How the results depend on the processing

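Leaving out each library in turn moved the within-minus-between overlap from -3.66 to 0.709 percentage points, the gene-end share difference from -10.1 to 13.6, the width difference from -60.5 to 2.5 bp, the EZH2 difference from -1.53 to 3.59 and the H3K27me3 difference from -6.48 to 1.02 (HepG2 minus THLE-2 for the last 4). At a p of 1e-10 the gene-end difference was -8.70 points, the width difference 172.75 bp and the H3K27me3 difference 4.45 points; with the 2000 best peaks the width difference was 167 bp. The cause was not tested.

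Sites in all 4 libraries numbered 0 at 1e-10 and 2 to 28 with a library left out, where fewer lists have to hold a site. Sites of both HepG2 libraries alone numbered 5 at 1e-10, 10 with the 2000 best peaks and 37 to 15202 with a library left out; those of THLE-2 numbered 0, 10 and 29 to 5237. Genes in all 4 numbered 0 at 1e-10 and 2 to 50 with a library left out. Genes of HepG2 alone numbered 1 at 1e-10, 1 with the 2000 best peaks, 15 and 67 with windows of 1 and 5 kb, 39 over all RefSeq genes, 12 at start sites only and 25 to 3875 with a library left out. Genes of THLE-2 alone numbered 0 at 1e-10, 37 at 5 kb, 42 over all RefSeq genes, 13 at start sites only and 21 to 521 with a library left out.

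With the replicate number as a block the values were -1.44, 1.75, -29.0, 1.03 and -2.73, with exact p of 1.0 for the first 4 and 0.5, the smallest possible, for H3K27me3. Same-numbered libraries shared a mean of 2.35% of THLE-2 peaks and other-numbered ones 2.58%. Each mean joins a pair of HepG2 replicate 1 with a pair of HepG2 replicate 2, whose overlaps differed widely. The means therefore cannot show whether the replicate numbers pair the libraries. Depth and FDR limit the lists: a peak absent from a list was not called, which does not show that JARID2 was absent.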
